A study of Solanum lycopersicum with 18 samples.

Results

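The heat shock proteins described here are 48 tomato genes measured in leaf RNA of Micro-TOM-EX and Micro-TOM plants at 0, 2 and 8 h of NaCl treatment. A gene was a member when its deposited protein description held the words "heat shock", but not "transcription factor" or "heat stress". hsc70, HSP90, HSP17.4 and LOC100736525 were also named outright in the rule, and all 4 matched the text as well. Of 59 genes that met the rule, 48 reached at least 1 FPKM (a count of fragments set relative to transcript length and to the size of the library) in at least 3 of the 18 libraries. They are 48 of 18402 genes that passed the same filter, out of 23808 genes in the table. By their descriptions they comprise 19 small heat shock proteins, 15 HSP70 proteins, 5 HSP90 proteins, 1 HSP100, 1 J-domain protein and 7 others. The 7 others are 4 heat shock factor proteins, 1 factor-binding protein, 1 activator of the HSP90 ATPase and 1 gene described as a heat shock protein binding protein. The 4 factors and the factor-binding protein met the words of the rule, although they regulate heat shock genes and are not chaperones.

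The 6 groups were Micro-TOM-EX at 0, 2 and 8 h and Micro-TOM at 0, 2 and 8 h, with 3 libraries each. Both materials are tomato (Solanum lycopersicum) labelled as cultivars and grown in soil in a greenhouse, and NaCl treatment is given for all of them in 1 protocol text. Micro-TOM is a dwarf tomato that is widely grown in laboratories; how Micro-TOM-EX differs from it, the NaCl dose and the plants' age are not stated in any label used. The labels do not tell whether the 3 libraries of each group are separate plants, and each p-value measures the spread between these samples, which may be technical. No leaves without NaCl at the later hours were analysed here, and salt and time of day cannot be told apart. In leaf RNA, fewer cells of a type and less RNA per cell cannot be told apart either.

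Heat shock proteins are molecular chaperones that bind unfolded or partly folded proteins. Small heat shock proteins hold unfolding proteins in a soluble state, HSP70 proteins with their J-domain partners refold them using ATP, HSP90 proteins mature a narrower set of clients such as kinases and receptors, and HSP100 proteins pull apart aggregates. Many of the genes are switched on by heat stress transcription factors, and in plants salt, drought and oxidative stress also raise many of them, while "cognate" members are made in unstressed cells.

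The libraries held an estimated 18300000 to 20300000 fragments, read from the spacing of the low FPKM values, and their FPKM values summed to 713443 to 778924. Correlations of log2(FPKM + 1) were 0.965 to 0.993 within groups, 0.95 to 0.983 when the 2 materials were paired within an hour and 0.667 to 0.832 between hours. Markers of leaf tissue, 29 genes of the Rubisco small subunit and the chlorophyll-binding proteins, summed to 43768 to 46445 FPKM in Micro-TOM-EX and 30127 to 44170 FPKM in Micro-TOM at 0 h. The 2 h sums were 12048 to 32166 FPKM in Micro-TOM-EX and 10778 to 17631 FPKM in Micro-TOM, and the 8 h sums 6994 to 16937 FPKM in Micro-TOM-EX and 6793 to 18680 FPKM in Micro-TOM. A list of 15 fruit genes summed to 3452 to 4988 FPKM in Micro-TOM-EX and 2467 to 3233 FPKM in Micro-TOM at 8 h, against at most 637 FPKM in any library at 0 h, while 7 root genes never summed above 3.59 FPKM and 23 anther and flower genes summed to 569.5 to 1318 FPKM over all libraries. Their part in the results on heat shock genes was not tested.

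At 2 h of NaCl the cytosolic HSP70 genes hsc70, LOC101254866 and LOC101247772 stood far above their 0 h level in both materials. So did the cytosolic HSP90 gene HSP90, the class I genes LOC104644406 and LOC543848 and the class II gene HSP17.4. By 8 h each of these genes was below its 2 h level in both materials. LOC101254866 was then also below its 0 h level, and hsc70 in Micro-TOM-EX was near its 0 h level. The others, and hsc70 in Micro-TOM, were still above 0 h. Other members were higher again at 8 h than at 2 h, led by LOC100736525. The chloroplast HSP90, the most abundant small heat shock protein gene at 0 h and, in Micro-TOM-EX, the abundant cognate HSC80 fell. At 2 h against 0 h, 27 members were higher and 11 lower in Micro-TOM-EX, where 26.7% of all genes tested were higher and 49.2% lower. In Micro-TOM 28 members were higher and 7 lower at 2 h, where 27.5% of all genes were higher and 47.5% lower.

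At 8 h against 0 h, 27 members were higher and 9 lower in Micro-TOM-EX, beside 35.5% of all genes higher and 35.8% lower. Micro-TOM had 31 members higher and 5 lower at 8 h, beside 37.0% and 33.6% of all genes. The median log2 difference of the members was 0.65 in Micro-TOM-EX and 0.57 in Micro-TOM at 2 h, where the medians of all genes were -0.36 and -0.31. At 8 h the members' medians were 0.54 in Micro-TOM-EX and 0.76 in Micro-TOM, and those of all genes were -0.004 and 0.039. HSP17.4, LOC543848, LOC544282, MTSHP, LOC101248279, LOC101254946, LOC101255185, LOC101266525 and LOC101268020 had under 1 FPKM in every 0 h library. These 9 members passed the filter only through later libraries and had to be higher in some of them, so their differences from 0 h are given as descriptions, with no p. Without them 20 of 39 members were higher and 11 lower at 2 h in Micro-TOM-EX and 21 higher and 7 lower in Micro-TOM, and at 8 h 19 were higher and 9 lower in Micro-TOM-EX and 23 higher and 5 lower in Micro-TOM. HSP90, LOC104644406, LOC101255223 and LOC101247576 reached 1 FPKM in a single 0 h library each, at 1.03, 2.9, 1.11 and 1.82 FPKM. They too needed later libraries to pass, though the counts of the 39 include them. Differences of these genes from 0 h are therefore descriptions as well. Each material was compared with its own 0 h libraries, which its 2 h and 8 h comparisons share. At 2 h 24 members were higher in both materials, of 27 in Micro-TOM-EX and 28 in Micro-TOM, and 6 lower, of 11 and 7. At 8 h 26 were higher in both, of 27 and 31, and 5 lower, of 9 and 5. The share of all genes called in both materials was not counted, so these overlaps are descriptions and tell nothing particular to the members. They also include members that passed the filter only through later libraries. The 48 members together held 0.647% ± 0.0625, 1.47% ± 0.0247 and 0.743% ± 0.0534 of all FPKM at 0, 2 and 8 h in Micro-TOM-EX and 0.513% ± 0.0388, 1.504% ± 0.0441 and 0.874% ± 0.098 in Micro-TOM (mean ± SD, n = 3).

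Scale matters for the 2 h comparisons. Rescaling the libraries by median-of-ratios factors moved the median of all genes at 2 h against 0 h by 0.39 in Micro-TOM-EX and 0.31 in Micro-TOM, and at 8 h against 2 h by -0.36 and -0.37. No other comparison moved by more than 0.084. At 2 h the split of all genes in Micro-TOM-EX became 6694 higher and 6850 lower, in place of 4919 and 9049, and in Micro-TOM 6479 and 6814, in place of 5055 and 8734. Among the members the rescaled split at 2 h was 29 higher and 5 lower in Micro-TOM-EX and 30 higher and 4 lower in Micro-TOM, so calls of members lower at 2 h are given with their rescaled value where the call did not hold.

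**Figure D1:**
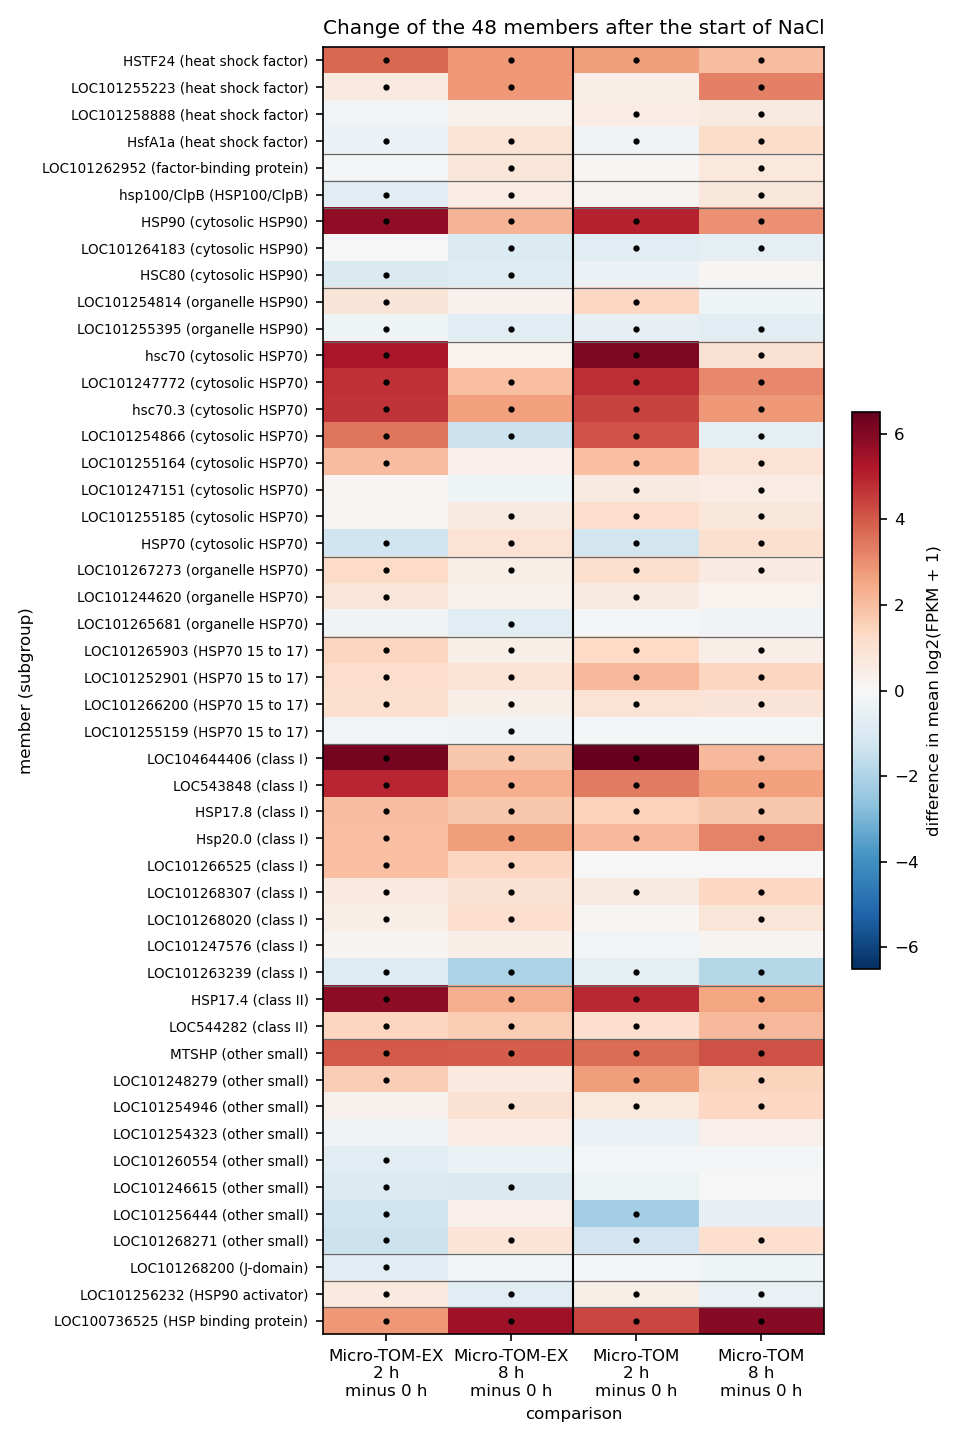
Difference in mean log2(FPKM + 1) of each of the 48 members (one per row, with its subgroup in brackets and lines between subgroups) at 2 h and 8 h against 0 h in Micro-TOM-EX (left pair of columns) and Micro-TOM (right pair). Red is higher and blue lower than at 0 h, and a black dot marks a limma adjusted p under 0.05. The darkest reds are in the 2 h columns, for LOC104644406, HSP17.4, HSP90 and hsc70, and in the 8 h columns for LOC100736525.

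Among the heat shock factors, which bind heat shock elements and control the chaperone genes, the class B factor HSTF24 (HsfB1) moved first and LOC101255223 (HSF30, the tomato HsfA2) moved late. HSTF24 stood at 96.6, 105 and 109.9 FPKM at 2 h, against 6.28, 8.38 and 6.3 FPKM at 0 h, in Micro-TOM-EX, and at 68.7, 77.3 and 73.7 FPKM at 2 h, against 5.73, 19.5 and 9.82 FPKM at 0 h, in Micro-TOM. All 6 libraries at 2 h lay above all 6 at 0 h. The rise was 3.72 ± 0.26 (log2 difference ± SE) in Micro-TOM-EX with a limma adjusted p of 4.02e-09, and 2.70 ± 0.26 in Micro-TOM with an adjusted p of 1.59e-07. By 8 h HSTF24 had 55.6, 53.2 and 57.2 FPKM in Micro-TOM-EX and 39.6, 41.4 and 52.7 FPKM in Micro-TOM, still above 0 h by 2.83 and 1.98 on the log2 scale. Its fall at 8 h against 2 h in Micro-TOM, -0.71 ± 0.26, had an adjusted p of 0.0244, and leaving out any 1 of 4 libraries of those groups took it to 0.0533 to 0.0759.

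LOC101255223, whose product accumulates in heat-stressed tomato cells and keeps chaperone genes on, had only 2.58, 1.49 and 1.56 FPKM at 2 h in Micro-TOM-EX and 1.53, 1.13 and 1.72 FPKM at 2 h in Micro-TOM. At 8 h it had 8.59, 16.4 and 12.1 FPKM in Micro-TOM-EX, against 0.5, 1.11 and 0.95 FPKM at 0 h, and 18.11, 17.5 and 13.0 FPKM in Micro-TOM, against 0.85, 0.87 and 0.64 FPKM at 0 h. Each 8 h library was thus far above each library of the earlier hours. The 8 h difference was 2.82 ± 0.21 in Micro-TOM-EX and 3.26 ± 0.21 in Micro-TOM, given as a description since the gene passed the filter through later libraries. Its 2 h difference in Micro-TOM-EX was 0.63 ± 0.21.

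HsfA1a (HSF8), the master activator of the heat response in tomato, averaged 13.0 ± 0.71, 9.88 ± 0.493 and 25.2 ± 1.2 FPKM at 0, 2 and 8 h in Micro-TOM-EX, and 10.8 ± 1.15, 8.96 ± 0.81 and 25.5 ± 0.628 FPKM in Micro-TOM (mean ± SD, n = 3, as for all such values here). The 8 h libraries did not overlap with the others. It rose at 8 h by 0.90 ± 0.10 in Micro-TOM-EX and 1.18 ± 0.10 in Micro-TOM (limma adjusted p = 4.61e-07 and 2.14e-08). At 2 h it was called lower in both, with -0.37 in Micro-TOM-EX and -0.24 in Micro-TOM, but after rescaling the differences were 0.04 and 0.08 with no call. LOC101258888, an HSF8-like factor, rose at 2 h in Micro-TOM (log2 difference of 0.48 ± 0.13, limma adjusted p = 0.00401) and had a difference of -0.19 ± 0.13 in Micro-TOM-EX (adjusted p = 0.197). LOC101262952, an HSF-binding protein of the kind that dampens factor activity, rose at 8 h by 0.81 ± 0.18 in Micro-TOM-EX and 0.67 ± 0.18 in Micro-TOM (limma adjusted p = 0.00094 and 0.00412). In the authors' deposited table the Micro-TOM call of LOC101262952 had a q-value of 0.068.

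The HSP100 disaggregase hsp100/ClpB rose in both materials at 8 h. Its 2 h values were 10.04, 6.94 and 7.13 FPKM in Micro-TOM-EX, against 12.7, 14.1 and 13.1 FPKM at 0 h, and 16.1, 13.0 and 14.2 FPKM in Micro-TOM, against 13.2, 11.3 and 13.9 FPKM at 0 h. All 3 Micro-TOM-EX libraries at 2 h thus lay below the other 9 libraries of 0 and 2 h. By 8 h its values were 19.2, 20.8 and 16.2 FPKM in Micro-TOM-EX and 22.97, 23.9 and 19.8 FPKM in Micro-TOM. The 8 h rise was 0.46 ± 0.14 in Micro-TOM-EX and 0.75 ± 0.14 in Micro-TOM (limma adjusted p = 0.00759 and 0.000148). The call of -0.68 at 2 h in Micro-TOM-EX became -0.28 with an adjusted p of 0.066 after rescaling.

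The 5 HSP90 genes moved in opposite directions. HSP90, the inducible cytosolic form, had 65.0, 104 and 101 FPKM at 2 h in Micro-TOM-EX, against 0.33, 1.03 and 0.61 FPKM at 0 h. In Micro-TOM it had 33.1, 45.9 and 44.9 FPKM at 2 h, against 0.27, 0.44 and 0.16 FPKM at 0 h. The gene had at most 1.03 FPKM in any 0 h library, and the hours did not overlap. The 2 h difference was 5.77 ± 0.22 in Micro-TOM-EX and 5.03 ± 0.22 in Micro-TOM, given as a description since the gene passed the filter through later libraries. At 8 h HSP90 had 5.09, 9.02 and 6.05 FPKM in Micro-TOM-EX and 7.85, 10.4 and 8.76 FPKM in Micro-TOM, with log2 differences from 2 h of -3.56 and -2.07 and from 0 h of 2.21 and 2.95.

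HSC80, the cognate cytosolic HSP90 and the most abundant HSP90 transcript, went the other way in Micro-TOM-EX. It had 1708, 1272 and 1523 FPKM at 0 h, 983, 609 and 771 FPKM at 2 h and 794, 803 and 957 FPKM at 8 h in Micro-TOM-EX. In Micro-TOM the values were 1115, 953 and 881 FPKM at 0 h, 734, 746 and 770.5 FPKM at 2 h and 979, 1142 and 936 FPKM at 8 h. The 0 h libraries of Micro-TOM-EX lay above all its treated libraries, whereas in Micro-TOM the 0 h and 8 h libraries overlapped. HSC80 fell in Micro-TOM-EX, with log2 differences of -0.95 ± 0.17 at 2 h and -0.81 ± 0.17 at 8 h (limma adjusted p = 0.000125 and 0.000575), with a q-value of 0.0676 at 2 h in the authors' deposited table. In Micro-TOM the differences were -0.38 ± 0.17 and 0.05 ± 0.17 (adjusted p = 0.0565 and 0.797), and limma gave the interaction of material and hour an adjusted p of 0.212 at 2 h and 0.11 at 8 h. The summed level of the 3 cytosolic HSP90 genes, nearly all of it HSC80, was 1505 ± 218, 881 ± 168 and 859.5 ± 91.1 FPKM at 0, 2 and 8 h in Micro-TOM-EX and 986 ± 120.0, 793 ± 24.7 and 1029 ± 110.0 FPKM in Micro-TOM.

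Of the remaining HSP90 genes, LOC101255395 is the chloroplast form, which in Arabidopsis is needed for chloroplast development. It was lower at 8 h, with 36.9, 39.5 and 39.9 FPKM in Micro-TOM-EX, against 67.4, 67.1 and 59.3 FPKM at 0 h, and 45.7, 38.9 and 38.1 FPKM in Micro-TOM, against 74.4, 61.4 and 73.6 FPKM at 0 h. No 8 h library reached any 0 h library. At 2 h it had 56.8, 47.6 and 56.1 FPKM in Micro-TOM-EX and 49.5, 43.3 and 50.4 FPKM in Micro-TOM. The 8 h fall was -0.72 ± 0.11 (limma adjusted p = 2.08e-05) in Micro-TOM-EX and -0.76 ± 0.11 (limma adjusted p = 1.25e-05) in Micro-TOM. Its 2 h calls, -0.27 in Micro-TOM-EX and -0.54 in Micro-TOM, became 0.16 and -0.19 after rescaling and were lost. The mitochondrial form LOC101254814 rose at 2 h to 27.2 ± 5.06 FPKM in Micro-TOM-EX, against 14.9 ± 2.85 FPKM at 0 h, and to 45.8 ± 5.88 FPKM in Micro-TOM, against 17.44 ± 2.67 FPKM at 0 h (0.82 and 1.35, limma adjusted p = 0.0102 and 0.000234). LOC101264183, described as heat shock protein 83, was scarce and fell at 8 h, to 1.02, 1.84 and 1.02 FPKM in Micro-TOM-EX, against 2.93, 3.15 and 3.38 FPKM at 0 h (log2 difference of -0.87 ± 0.19, limma adjusted p = 0.000753), and to 1.46, 1.4 and 1.15 FPKM in Micro-TOM, against 2.39, 3.81 and 2.06 FPKM at 0 h (log2 difference of -0.66 ± 0.19, limma adjusted p = 0.00632). At 2 h it was called lower in Micro-TOM, with 0.95, 0.95 and 1.83 FPKM, but was not past the threshold in Micro-TOM-EX, with 3.68, 2.6 and 3.06 FPKM.

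The cytosolic HSP70 genes had the largest change in summed FPKM among the subfamilies at 2 h. Of 8 such genes, 5 rose and 1 fell at 2 h in Micro-TOM-EX, beside 26.7% of all genes higher and 49.2% lower. In Micro-TOM 7 rose and 1 fell, beside 27.5% and 47.5% of all genes. The 7 include LOC101255185, which passed the filter only through later libraries. Genes of this kind are highly alike in sequence, so reads may have been shared between them and the level of any one gene is less certain than their sum. Their summed level was 2376 ± 196, 8417 ± 495 and 2117 ± 301 FPKM at 0, 2 and 8 h in Micro-TOM-EX, and 1842 ± 93.5, 8298 ± 333 and 2847 ± 305 FPKM in Micro-TOM. The 2 h sums exceeded those of every library of the other hours in both materials.

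hsc70 (heat shock cognate 70 kDa protein 1) had 2216, 2492 and 2487 FPKM at 2 h in Micro-TOM-EX, against 70.2, 54.5 and 54.3 FPKM at 0 h. In Micro-TOM it had 2484, 2409.6 and 2329.9 FPKM at 2 h, against 30.8, 48.2 and 29.5 FPKM at 0 h. The hours were far apart, and at 2 h the libraries of the materials overlapped (log2 difference of -0.01 ± 0.23, limma adjusted p = 0.989 for Micro-TOM-EX minus Micro-TOM). The rise was 5.31 ± 0.23 (limma adjusted p = 3.3e-11) in Micro-TOM-EX and 6.05 ± 0.23 (limma adjusted p = 9.02e-12) in Micro-TOM. By 8 h it was down to 60.9, 96.4 and 57.7 FPKM in Micro-TOM-EX and 62.4, 104 and 57.2 FPKM in Micro-TOM. The 8 h values of Micro-TOM-EX overlapped with its 0 h values (0.23 ± 0.23, adjusted p = 0.386), while those of Micro-TOM were above its 0 h values (1.01 ± 0.23, adjusted p = 0.00112).

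LOC101254866 and LOC101247772, both described as heat shock cognate 70 kDa protein 2 or 2-like, peaked at 2 h as well but ended at different levels. LOC101254866 had 1909, 2165 and 2055 FPKM at 2 h and 43.9, 92.0 and 76.1 FPKM at 8 h in Micro-TOM-EX, against 168, 182 and 191 FPKM at 0 h. In Micro-TOM it had 2138, 2216 and 2115 FPKM at 2 h and 80.9, 94.8 and 72.1 FPKM at 8 h, against 99.7, 179 and 111 FPKM at 0 h. After the peak this gene was below its 0 h level, with no overlap between 8 h and 0 h libraries in either material. The 8 h fall in Micro-TOM-EX was -1.40 ± 0.23 (limma adjusted p = 4.93e-05). In Micro-TOM the 8 h difference was -0.61 ± 0.23 with an adjusted p of 0.0276, which was 0.168 without replicate 2 of 0 h, 0.0603 without replicate 1 of 8 h and 0.0956 without replicate 3 of 8 h.

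LOC101247772 instead stayed up. It had 1314, 1941 and 1690.1 FPKM at 2 h and 199, 258 and 253 FPKM at 8 h in Micro-TOM-EX, against 63.5, 55.4 and 58.5 FPKM at 0 h, and 1312, 1331 and 1116 FPKM at 2 h and 326, 542 and 335 FPKM at 8 h in Micro-TOM, against 48.5, 42.4 and 40.8 FPKM at 0 h. Every treated library was above every 0 h library. Its rise was 4.76 at 2 h and 1.98 at 8 h in Micro-TOM-EX and 4.80 and 3.13 in Micro-TOM, with limma adjusted p of at most 1.16e-07. hsc70.3 also stayed up, at a lower level, with 2.1 ± 1.32, 79.1 ± 27 and 17.7 ± 3.63 FPKM at 0, 2 and 8 h in Micro-TOM-EX and 1.85 ± 0.764, 57.4 ± 3.28 and 18.8 ± 1.03 FPKM in Micro-TOM. LOC101255164 rose at 2 h to 11.1 ± 1.12 FPKM in Micro-TOM-EX, against 2.00 ± 0.546 FPKM at 0 h, and to 7.63 ± 1.13 FPKM in Micro-TOM, against 1.24 ± 0.0872 FPKM at 0 h.

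The most abundant HSP70 gene, LOC101247151, another cognate 70 kDa protein 2-like gene, was steadier. It had 2282, 1908 and 2016 FPKM at 0 h, 2345, 1959 and 2404 FPKM at 2 h and 1469.7, 1672 and 1983 FPKM at 8 h in Micro-TOM-EX. The Micro-TOM values were 1754, 1476 and 1647 FPKM at 0 h, 2421, 2531 and 2286 FPKM at 2 h and 2183, 2429 and 2161 FPKM at 8 h. In Micro-TOM the treated libraries lay above the 0 h libraries, by 0.57 ± 0.16 at 2 h and 0.48 ± 0.16 at 8 h (limma adjusted p = 0.00366 and 0.0129), the 8 h call being at 0.0557 without replicate 2 of 0 h. In Micro-TOM-EX the differences were 0.11 ± 0.16 and -0.28 ± 0.16 (adjusted p = 0.532 and 0.117), and the 2 h difference passed after rescaling (0.55, adjusted p = 0.00888). The materials' 2 h and 8 h responses of this gene did not pass a test of their difference (adjusted p = 0.262 and 0.121).

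With these changes the make-up of the cytosolic HSP70 transcripts shifted at 2 h and moved back at 8 h. LOC101247151 held 87%, 26.7% and 80.6% of the summed FPKM of the 8 genes at 0, 2 and 8 h in Micro-TOM-EX, and 88.1%, 29.1% and 79.5% in Micro-TOM. hsc70 held 2.5%, 28.5% and 3.42% in Micro-TOM-EX and 1.98%, 29% and 2.58% in Micro-TOM. At 2 h hsc70, LOC101254866 and LOC101247151 each held between 24.3% and 29.1% of the pool, and LOC101247772 made up most of the rest with 19.5% in Micro-TOM-EX and 15.1% in Micro-TOM. At 8 h LOC101247772 was the second gene of the pool, with 11.2% in Micro-TOM-EX and 13.9% in Micro-TOM. These shares do not change with the scaling of whole libraries.

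**Figure D2:**
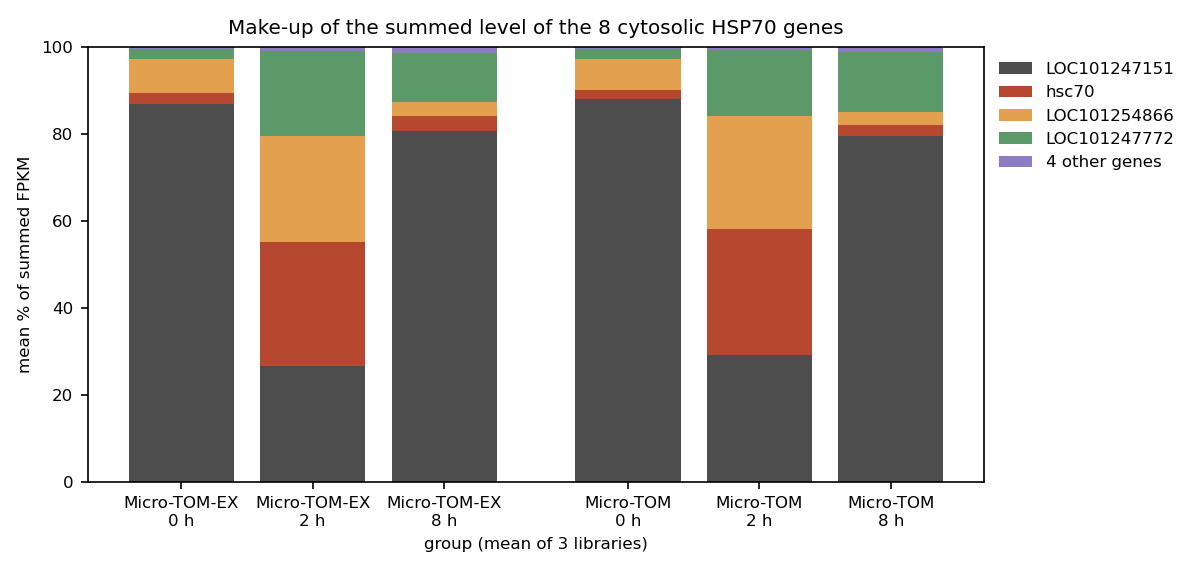
Mean share (%, vertical axis from 0 to 100) that each gene held of the summed FPKM of the 8 cytosolic HSP70 genes, for Micro-TOM-EX (left) and Micro-TOM (right) at 0, 2 and 8 h, as the mean of 3 libraries. LOC101247151 holds 87% and 88.1% at 0 h and 26.7% and 29.1% at 2 h in Micro-TOM-EX and Micro-TOM.

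The gene with the symbol HSP70, picked out after its values were seen, did not follow that course. It had 1.31, 0.78 and 1.11 FPKM at 2 h in Micro-TOM-EX, against 5.12, 3.38 and 3.69 FPKM at 0 h, and 0.7, 0.75 and 1.11 FPKM at 2 h in Micro-TOM, against 3.71, 2.55 and 3.45 FPKM at 0 h. At 8 h it had 8.98, 8.65 and 8.24 FPKM in Micro-TOM-EX and 8.31, 6.79 and 7.78 FPKM in Micro-TOM. All libraries of 2 h lay below, and all of 8 h above, those of 0 h. It fell at 2 h, with log2 differences of -1.29 ± 0.16 in Micro-TOM-EX and -1.19 ± 0.16 in Micro-TOM (limma adjusted p = 1.57e-06 and 3.96e-06) and rose at 8 h by 0.94 ± 0.16 and 1.03 ± 0.16 (adjusted p = 5.15e-05 and 2.04e-05). LOC101255185, heat shock 70 kDa protein 5, stayed under 2.1 FPKM in every library. Its 2 h difference was 0.07 ± 0.19 in Micro-TOM-EX and 1.13 ± 0.19 in Micro-TOM.

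**Figure D3:**
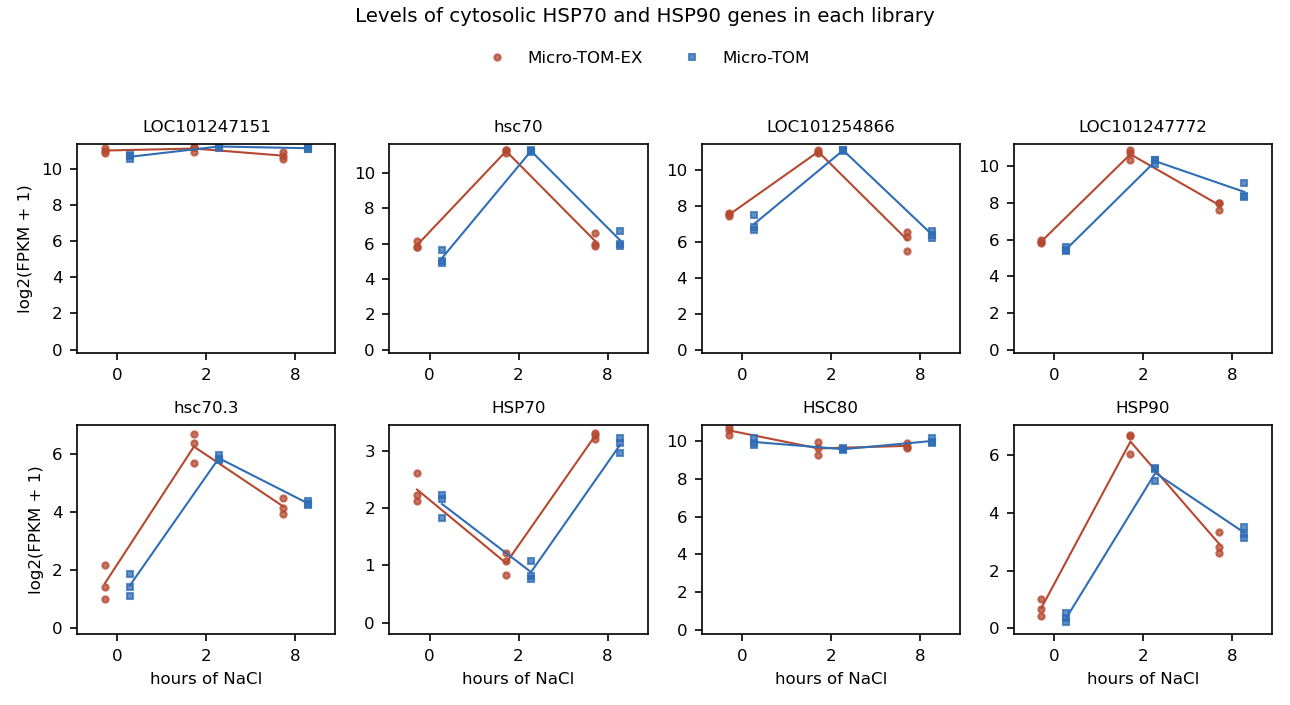
Level of 6 cytosolic HSP70 genes and 2 cytosolic HSP90 genes as log2(FPKM + 1) in each library (points) at 0, 2 and 8 h of NaCl, with lines through the group means; Micro-TOM-EX is drawn left (circles) and Micro-TOM right (squares) within each hour. hsc70 peaks at 2 h at mean levels of 2398 ± 158 and 2408 ± 77.1 FPKM in Micro-TOM-EX and Micro-TOM, while HSP70 dips at 2 h and HSC80 is lower after 0 h in Micro-TOM-EX.

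HSP70 proteins of organelles moved less. The stromal HSP70 of chloroplasts, LOC101265681, which helps import and fold chloroplast proteins, had 161, 182 and 167 FPKM at 8 h in Micro-TOM-EX, against 285, 281 and 277 FPKM at 0 h, and 223, 252 and 195 FPKM at 8 h in Micro-TOM, against 266, 262 and 263 FPKM at 0 h. All 8 h libraries lay below the 0 h libraries of their material. The fall passed the test in Micro-TOM-EX (log2 difference of -0.72 ± 0.11, limma adjusted p = 1.94e-05). In Micro-TOM the difference was -0.25 ± 0.11 (adjusted p = 0.0532, and 0.0264 after rescaling). The mitochondrial forms LOC101267273 and LOC101244620, which drive protein import into mitochondria, rose at 2 h in both materials. LOC101267273 averaged 88.8 ± 15.6 FPKM at 2 h in Micro-TOM-EX, against 37.2 ± 2.49 FPKM at 0 h, and 76.7 ± 2.59 FPKM at 2 h in Micro-TOM, against 36.7 ± 2.99 FPKM at 0 h. Its rise was 1.22 and 1.05, and that of LOC101244620 0.80 and 0.57, with limma adjusted p of at most 0.00226.

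LOC101265903, LOC101266200, LOC101255159 and LOC101252901 are described as heat shock 70 kDa proteins 15, 15, 16 and 17. In Arabidopsis the proteins numbered 15 and 16 are of the HSP110 type, which exchange nucleotide on HSP70, and number 17 lies in the endoplasmic reticulum. LOC101265903 had 28.2, 26.5 and 28.3 FPKM at 0 h, 67.5, 74.2 and 80.4 FPKM at 2 h and 31.6, 40.8 and 36.4 FPKM at 8 h in Micro-TOM-EX. The Micro-TOM values were 20.99, 20.4 and 21.2 FPKM at 0 h, 50.8, 55.6 and 52.7 FPKM at 2 h and 29.2, 29.4 and 26.5 FPKM at 8 h. LOC101266200, its neighbour on chromosome 12, had 35.4, 34.1 and 40.0 FPKM at 0 h, 74.5, 70.6 and 80.96 FPKM at 2 h and 41.8, 52.6 and 47.6 FPKM at 8 h in Micro-TOM-EX, and in Micro-TOM 40.9, 32.5 and 39.6 FPKM at 0 h, 74.8, 73.5 and 72.1 FPKM at 2 h and 67.7, 70.33 and 63.4 FPKM at 8 h. Both rose at 2 h and at 8 h in both materials, with limma adjusted p of at most 0.00645. LOC101252901 rose at 2 h too, by 1.15 ± 0.12 in Micro-TOM-EX and 2.10 ± 0.12 in Micro-TOM (limma adjusted p = 4.54e-07 and 6.81e-10). It had 13.9, 12.04 and 16.0 FPKM at 0 h, 32.4, 31.9 and 31.8 FPKM at 2 h and 25.9, 26.8 and 27.6 FPKM at 8 h in Micro-TOM-EX, and in Micro-TOM 12.8, 13.8 and 13.3 FPKM at 0 h, 69.5, 57.9 and 54.1 FPKM at 2 h and 36.4, 31.3 and 43.5 FPKM at 8 h, so in both materials the 2 h libraries were separate from those of 0 h. LOC101255159 varied little, between 13.8 and 18.2 FPKM in all 18 libraries. Its call at 8 h in Micro-TOM-EX, -0.24 with an adjusted p of 0.0475, was lost without any single library of those 2 groups except replicate 1 of 8 h, without any 1 of 5 libraries of other groups (0.051 to 0.139 over these 10), with rescaling, with a replicate block over all hours (0.0573) or within each hour (0.0804), without both 0 h libraries numbered 2 (0.0614) and in the authors' deposited q-values.

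Small heat shock protein genes moved in both directions. At 2 h, 11 of the 19 genes were higher and 5 lower in Micro-TOM-EX, beside 26.7% and 49.2% of all genes. In Micro-TOM 10 were higher and 3 lower, beside 27.5% and 47.5% of all genes. After rescaling these counts were 12 and 3 in Micro-TOM-EX and 10 and 2 in Micro-TOM. The rescaled split of all 18402 genes was 6694 higher and 6850 lower in Micro-TOM-EX and 6479 and 6814 in Micro-TOM. At 8 h, 12 were higher and 2 lower in Micro-TOM-EX, beside 35.5% and 35.8% of all genes. In Micro-TOM 12 were higher and 1 lower at 8 h, beside 37.0% and 33.6%. The 19 genes include HSP17.4, LOC543848, LOC544282, MTSHP, LOC101248279, LOC101254946, LOC101266525 and LOC101268020. These passed the filter only through later libraries and had to be higher in some of them, so the counts of genes higher are descriptions.

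The class I genes encode cytosolic proteins that bind unfolding clients. LOC104644406 was barely present at 0 h, with 0.37, 0.16 and 0.16 FPKM in Micro-TOM-EX and 0.16, 2.9 and 0.16 FPKM in Micro-TOM. At 2 h it had 64.8, 153 and 77.9 FPKM in Micro-TOM-EX and 158, 168 and 146 FPKM in Micro-TOM. No other member had a larger log2 difference in these comparisons, and the libraries of the 2 hours were far apart. The 2 h difference was 6.24 ± 0.42 in Micro-TOM-EX and 6.51 ± 0.42 in Micro-TOM, given as a description since the gene passed the filter through later libraries. By 8 h there were 3.03, 1.57 and 5.58 FPKM in Micro-TOM-EX and 5.76, 8.59 and 5.79 FPKM in Micro-TOM.

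LOC101263239, the most abundant small heat shock protein gene in 0 h leaves, fell where most of its class rose, and is named for that after its values were seen. It had 301, 261 and 279.6 FPKM at 0 h, 121, 195 and 163 FPKM at 2 h and 56.8, 55.1 and 90.6 FPKM at 8 h in Micro-TOM-EX. The Micro-TOM libraries had 250.0, 240.0 and 245 FPKM at 0 h, 168, 151 and 154 FPKM at 2 h and 89.6, 73.9 and 45.7 FPKM at 8 h. In both materials the 3 hours did not overlap. The 8 h fall was -2.08 ± 0.23 (limma adjusted p = 5.84e-07) in Micro-TOM-EX and -1.85 ± 0.23 (limma adjusted p = 2.13e-06) in Micro-TOM. At 2 h the falls of -0.83 and -0.63 became -0.40 and -0.28 after rescaling, with adjusted p of 0.139 and 0.299. With this gene included, the summed level of the 9 class I genes was 308 ± 15.2, 410.0 ± 70.4 and 184 ± 34.6 FPKM at 0, 2 and 8 h in Micro-TOM-EX and 267 ± 2.69, 390.0 ± 16.2 and 176 ± 20.4 FPKM in Micro-TOM.

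A row of 4 class I genes lies within 47546593 to 47564804 on chromosome 6, by the positions in the deposited table, whose genome build is not given in the sources used here. In order they are HSP17.8, LOC101266525, LOC543848 and Hsp20.0, with 1 other gene of the table among them. HSP17.8 had 83.7, 65.1 and 86.3 FPKM at 2 h in Micro-TOM-EX, against 16.4, 20.97 and 17.72 FPKM at 0 h, and 38, 43.6 and 36.4 FPKM at 2 h in Micro-TOM, against 13.8, 14.4 and 11.5 FPKM at 0 h. At 8 h it averaged 64.3 ± 9.66 FPKM in Micro-TOM-EX and 46.9 ± 5.57 FPKM in Micro-TOM. LOC543848 had 39.8, 40.3 and 53.3 FPKM at 2 h in Micro-TOM-EX, against 0.71, 0.72 and 0.08 FPKM at 0 h, and 14.4, 17.02 and 13.4 FPKM at 2 h in Micro-TOM, against 0.4, 0.54 and 0.71 FPKM at 0 h. At 8 h LOC543848 had 5.17, 6.78 and 7.58 FPKM in Micro-TOM-EX and 7.68, 10.8 and 8.48 FPKM in Micro-TOM, below its 2 h libraries. Hsp20.0 averaged 3.54 ± 0.813, 16.9 ± 2.71 and 28.6 ± 4.44 FPKM at 0, 2 and 8 h in Micro-TOM-EX and 2.81 ± 1.74, 14.5 ± 0.697 and 32.8 ± 2.02 FPKM in Micro-TOM. At 2 h the rises of HSP17.8 and Hsp20.0 were 2.03 and 1.98 in Micro-TOM-EX and 1.51 and 2.12 in Micro-TOM, with limma adjusted p of at most 9.77e-07. The 2 h difference of LOC543848 was 4.94 in Micro-TOM-EX and 3.36 in Micro-TOM. Such neighbouring class I genes are alike in sequence, so reads may be shared among them.

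LOC101266525 was listed at 0 in all 3 Micro-TOM libraries of 0 h, all 3 of 2 h and 2 of the 3 of 8 h, the remaining one having 0.1 FPKM. In Micro-TOM-EX it had 0, 0.6 and 0.1 FPKM at 0 h, 1.32, 6.16 and 5.01 FPKM at 2 h and 1.56, 2.64 and 2.52 FPKM at 8 h. Each treated Micro-TOM-EX library was therefore above every Micro-TOM library. It passed the filter on low values only through the 6 Micro-TOM-EX libraries of 2 h and 8 h, so comparisons of these with Micro-TOM are descriptions too.

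The remaining class I genes were scarce. LOC101268307 rose in both materials at 8 h, to 8.32 ± 0.324 FPKM in Micro-TOM-EX, against 3.81 ± 1.3 FPKM at 0 h, and to 8.79 ± 1.04 FPKM in Micro-TOM, against 2.97 ± 0.973 FPKM at 0 h. LOC101268020, next to it on chromosome 9, reached 1.3 ± 0.453 FPKM at 8 h in Micro-TOM-EX, against 0.0733 ± 0.0751 FPKM at 0 h, and 1.12 ± 0.23 FPKM in Micro-TOM, against 0.253 ± 0.242 FPKM at 0 h. The 8 h rise of LOC101268307 had a limma adjusted p of 0.00109 in Micro-TOM-EX and 7.59e-05 in Micro-TOM. LOC101247576 passed no comparison and stayed between 0.21 and 1.82 FPKM.

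Both class II genes, whose products form cytosolic complexes separate from class I, were near 0 in 0 h leaves. HSP17.4 had 68.5, 56.2 and 59.2 FPKM at 2 h in Micro-TOM-EX, against 0, 0.21 and 0.1 FPKM at 0 h. In Micro-TOM it had 25.8, 33.6 and 34.8 FPKM at 2 h, against 0.11, 0.1 and 0 FPKM at 0 h. The 2 h libraries of each material were far above its 0 h libraries, and those of Micro-TOM-EX all exceeded those of Micro-TOM. The 2 h difference was 5.82 ± 0.18 in Micro-TOM-EX and 4.91 ± 0.18 in Micro-TOM. At 8 h it had 3.02, 5.07 and 6.11 FPKM in Micro-TOM-EX and 4.83, 5.45 and 5.52 FPKM in Micro-TOM. LOC544282 (Le-HSP17.6) averaged 2.33 ± 0.508 FPKM at 8 h in Micro-TOM-EX and 3.63 ± 0.995 FPKM in Micro-TOM, against 0.0633 ± 0.11 and 0.0633 ± 0.11 FPKM at 0 h.

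Among the 8 other small heat shock proteins, MTSHP, the mitochondrial one, had 0, 0.43 and 0 FPKM at 0 h, 18.3, 20.3 and 13.2 FPKM at 2 h and 11.8, 20.2 and 18.7 FPKM at 8 h in Micro-TOM-EX, and 0.07, 0.28 and 0.07 FPKM at 0 h, 10.7, 13.1 and 15.67 FPKM at 2 h and 17.81, 21.6 and 18.6 FPKM at 8 h in Micro-TOM. Every treated library was far above the 0 h libraries. The difference from 0 h was 4.0 ± 0.21 at 2 h and 3.96 ± 0.21 at 8 h in Micro-TOM-EX and 3.62 ± 0.21 and 4.16 ± 0.21 in Micro-TOM. LOC101248279, a class III protein of the kind that lies in the nucleus in Arabidopsis, averaged 3.45 ± 2.22 FPKM at 2 h in Micro-TOM-EX, against 0.377 ± 0.34 FPKM at 0 h, and 5.68 ± 0.67 FPKM in Micro-TOM, against 0.03 ± 0.052 FPKM at 0 h, with log2 differences of 1.61 and 2.69.

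A pair of small heat shock protein genes dipped at 2 h and were higher at 8 h than at 2 h. LOC101268271, the peroxisomal one, had 1.01, 0.55 and 0.55 FPKM at 2 h in Micro-TOM-EX, against 2.25, 5.95 and 3.07 FPKM at 0 h, and 0.58, 0.49 and 1.07 FPKM at 2 h in Micro-TOM, against 3.36, 3.79 and 2.03 FPKM at 0 h. LOC101256444, described as class V, had 3.79, 2.7 and 4.98 FPKM at 2 h in Micro-TOM-EX, against 12.02, 8.44 and 11.2 FPKM at 0 h, and 3.36, 2.44 and 4.39 FPKM at 2 h in Micro-TOM, against 20.3, 20.6 and 17.2 FPKM at 0 h. For both genes no 2 h library reached a 0 h library. The fall of LOC101268271 was -1.42 in Micro-TOM-EX and -1.23 in Micro-TOM and that of LOC101256444 -1.28 and -2.23, with limma adjusted p of at most 0.00026. At 8 h LOC101268271 had 7.45, 7.12 and 7.23 FPKM in Micro-TOM-EX and 7.02, 9.14 and 6.41 FPKM in Micro-TOM, and LOC101256444 9.61, 14.1 and 17.3 FPKM in Micro-TOM-EX and 16.6, 13.0 and 10.6 FPKM in Micro-TOM. LOC101268271 was then above 0 h by 0.87 in Micro-TOM-EX and 1.08 in Micro-TOM (limma adjusted p = 0.0045 and 0.000888). In Micro-TOM no 8 h library of LOC101256444 reached a 0 h library, with a log2 difference of -0.52 that was not past the threshold before rescaling.

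Of the last 4, LOC101254946 (class IV) had an 8 h difference of 0.99 in Micro-TOM-EX and 1.34 in Micro-TOM, and never exceeded 1.93 FPKM. LOC101246615 had 1.88, 3.68 and 1.63 FPKM at 0 h, 0.8, 0.85 and 0.69 FPKM at 2 h and 0.87, 0.77 and 0.56 FPKM at 8 h in Micro-TOM-EX, and in Micro-TOM 0.99, 1.22 and 1.05 FPKM at 0 h, 0.47, 0.98 and 0.55 FPKM at 2 h and 1.5, 1.08 and 0.72 FPKM at 8 h. It fell in Micro-TOM-EX at 2 h and 8 h, with log2 differences of -0.89 ± 0.19 and -0.93 ± 0.19, and differed by -0.34 ± 0.19 and -0.01 ± 0.19 in Micro-TOM. The limma adjusted p of these were 0.000657 and 0.000503 in Micro-TOM-EX and 0.131 and 0.98 in Micro-TOM. LOC101260554 (class VI) had a 2 h difference of -0.66 in Micro-TOM-EX that did not hold after rescaling (-0.25, adjusted p = 0.249). LOC101254323 passed neither comparison with 0 h in either material.

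**Figure D4:**
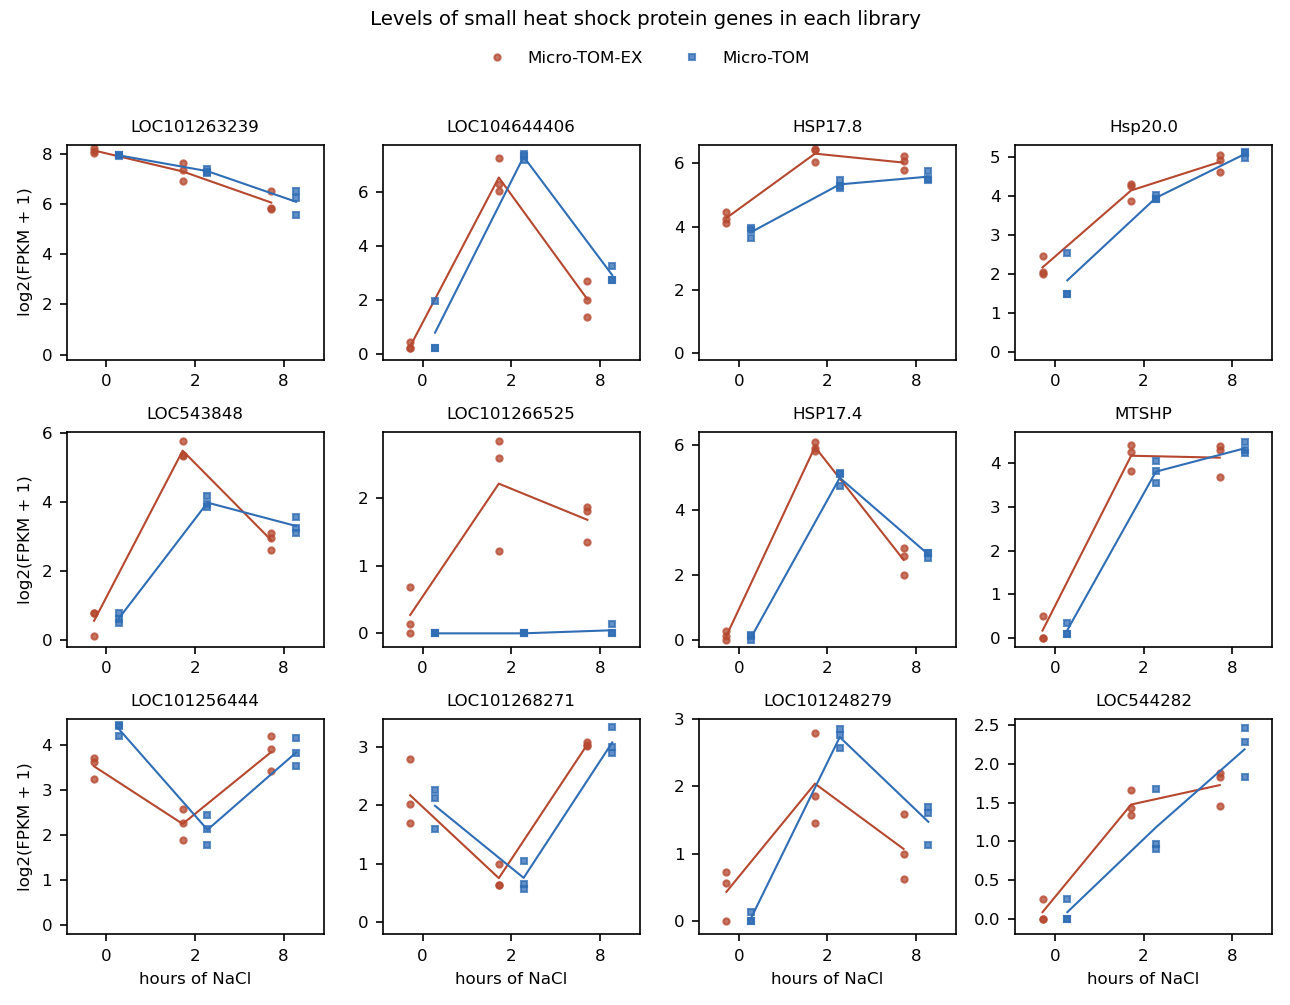
Level of 12 small heat shock protein genes as log2(FPKM + 1) in each library (points) at 0, 2 and 8 h of NaCl, with lines through the group means; Micro-TOM-EX is drawn left (circles) and Micro-TOM right (squares) within each hour, and each panel has its own vertical scale. LOC104644406, LOC543848 and HSP17.4 peak at 2 h, MTSHP holds its level, LOC101263239 steps down and LOC101266525 stays at or next to 0 in Micro-TOM.

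LOC100736525, described as a heat shock protein binding protein, had the largest 8 h difference of all the members. Its deposited KEGG orthology entries name the molecular chaperone DnaJ, DnaJ homolog subfamily B member 4 and bromodomain-containing protein 4. Its place outside the J-domain group rests on its description. The gene had 33.1, 54.7 and 31.8 FPKM at 0 h, 404, 208 and 248 FPKM at 2 h and 1935, 1668 and 1810.5 FPKM at 8 h in Micro-TOM-EX. The Micro-TOM libraries had 37.2, 14.2 and 31.5 FPKM at 0 h, 539, 495 and 611 FPKM at 2 h and 1489, 1842 and 1488 FPKM at 8 h. The 3 hours were separate in each material, and at 2 h all Micro-TOM libraries exceeded all Micro-TOM-EX libraries. The rise was 2.80 ± 0.30 at 2 h and 5.51 ± 0.30 at 8 h in Micro-TOM-EX and 4.36 ± 0.30 and 5.91 ± 0.30 in Micro-TOM, with limma adjusted p of at most 4.5e-07.

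The activator of the HSP90 ATPase, LOC101256232, went up and then down. It had 78.6, 67.0 and 78.7 FPKM at 2 h and 23.1, 34.2 and 27.5 FPKM at 8 h in Micro-TOM-EX, against 46.6, 47.1 and 48.2 FPKM at 0 h, and 55.0, 66.5 and 65.5 FPKM at 2 h and 40.5, 36.6 and 29.8 FPKM at 8 h in Micro-TOM, against 46.6, 46.3 and 50.3 FPKM at 0 h. In both materials the 2 h libraries lay above and the 8 h libraries below those of 0 h. In Micro-TOM-EX the differences from 0 h were 0.65 ± 0.14 and -0.74 ± 0.14 (limma adjusted p = 0.000446 and 0.000145). In Micro-TOM they were 0.37 ± 0.14 and -0.42 ± 0.14 (adjusted p = 0.0207 and 0.0114). The Micro-TOM call at 2 h was lost without any 1 of 4 libraries, at 0.0507 to 0.0728, and that at 8 h without replicate 3 of 8 h (0.0712). The J-domain protein LOC101268200, a partner that hands clients to HSP70, had 53.4, 39.6 and 37.1 FPKM at 2 h in Micro-TOM-EX, against 75.8, 63.9 and 76.0 FPKM at 0 h, and 49.8, 42.3 and 59.0 FPKM at 2 h in Micro-TOM, against 57.4, 46.4 and 58.5 FPKM at 0 h. Its 8 h values were 68.1, 70.2 and 54.2 FPKM in Micro-TOM-EX and 60.0, 37.9 and 37.9 FPKM in Micro-TOM. Its 2 h call in Micro-TOM-EX (log2 difference of -0.73 ± 0.19, limma adjusted p = 0.00231) did not hold after rescaling (-0.30, adjusted p = 0.14).

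**Figure D5:**
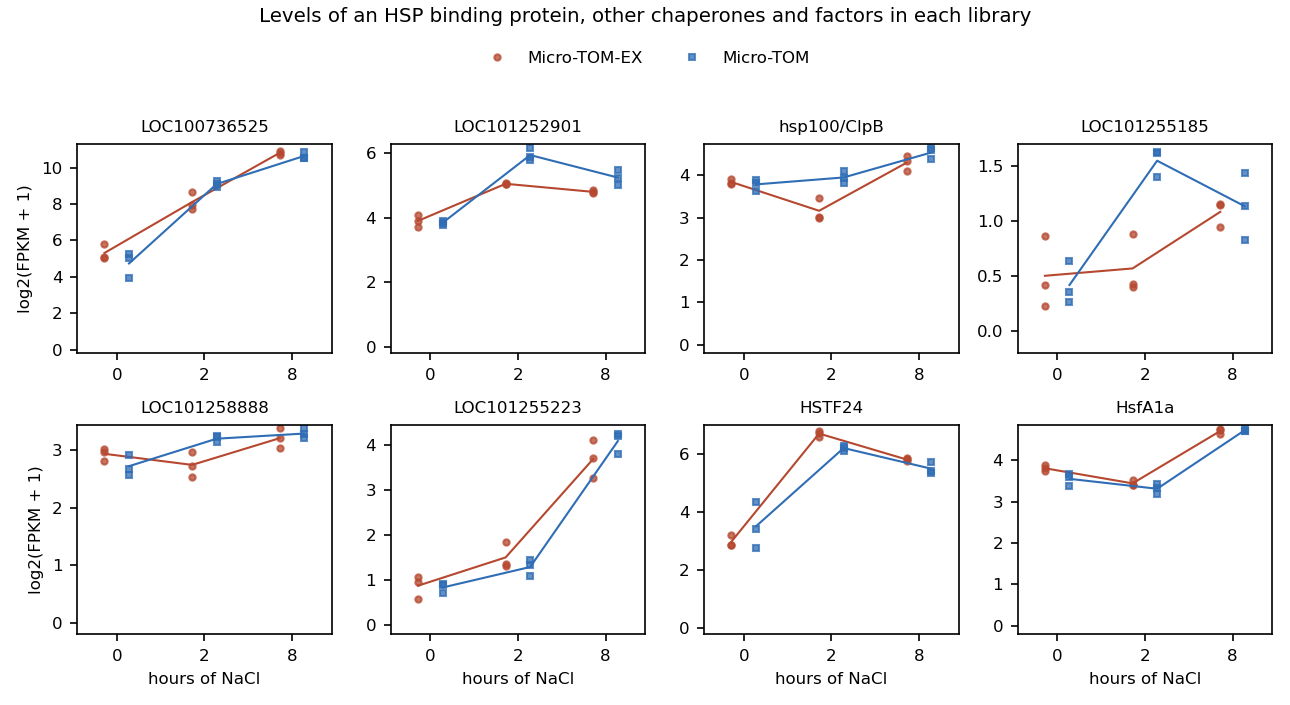
Level of LOC100736525, LOC101252901, hsp100/ClpB, LOC101255185 and 4 heat shock factors as log2(FPKM + 1) in each library (points) at 0, 2 and 8 h of NaCl, with lines through the group means; Micro-TOM-EX is drawn left (circles) and Micro-TOM right (squares) within each hour, and each panel has its own vertical scale. At 2 h LOC100736525, LOC101252901, hsp100/ClpB, LOC101255185 and LOC101258888 are lower in Micro-TOM-EX than in Micro-TOM.

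Between 8 h and 2 h the HSP70 genes mainly fell and the small heat shock proteins divided. In Micro-TOM-EX 15 members were higher and 21 lower at 8 h than at 2 h, beside 45.3% of all genes higher and 23.7% lower. Micro-TOM had 16 members higher and 18 lower, beside 46.0% and 23.7% of all genes. After rescaling, which moved the medians of all genes down in this comparison, the members' counts were 10 and 26 in Micro-TOM-EX and 10 and 25 in Micro-TOM. Those of all 18402 genes were then 5868 and 6334 in Micro-TOM-EX and 5900 and 6380 in Micro-TOM. Of 15 HSP70 genes, 11 fell and 2 rose in Micro-TOM-EX and 9 fell and 1 rose in Micro-TOM, and after rescaling 13 and 14 fell. The log2 difference was -5.08 and -5.05 for hsc70, -4.90 and -4.70 for LOC101254866 and -4.51 and -4.38 for LOC104644406 in Micro-TOM-EX and Micro-TOM (limma adjusted p of at most 2e-07). The largest rises were those of LOC100736525, 2.71 in Micro-TOM-EX and 1.55 in Micro-TOM, of LOC101255223, 2.19 and 2.80, of LOC101268271, 2.29 and 2.32, and of HSP70, 2.23 and 2.22.

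At 0 h 1 member was higher and 0 lower in Micro-TOM-EX than in Micro-TOM by limma, beside 1.95% of all genes higher and 2.06% lower. At an unadjusted p under 0.05 there were 13 higher and 1 lower. The share of all genes at that unadjusted threshold was not counted, so this split tells nothing particular to the members. The member called was LOC101265903, with 28.2, 26.5 and 28.3 FPKM in Micro-TOM-EX and 20.99, 20.4 and 21.2 FPKM in Micro-TOM, and no overlap between the groups (log2 difference of 0.39 ± 0.10, limma adjusted p = 0.0312). The call was lost without any single 0 h library (adjusted p = 0.0517 to 0.116) and after rescaling (0.142). Deviations of the 0 h libraries from their group means correlated between the materials by replicate number, at 0.475, 0.439 and 0.127, though the labels name nothing shared. With a replicate block within each hour 2 members were higher, hsc70 (0.73, adjusted p = 0.0358) and LOC101246615 (0.66, adjusted p = 0.0499), and LOC101265903 was at 0.0505. With 1 block over all hours the 2 were LOC101265903 (adjusted p = 0.0346) and LOC101246615 (0.0451). After rescaling LOC101256444 was called lower instead (-0.87, adjusted p = 0.0426), as it was in the authors' deposited table with a q-value of 0.00688; it had 12.02, 8.44 and 11.2 FPKM in Micro-TOM-EX and 20.3, 20.6 and 17.2 FPKM in Micro-TOM.

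At 2 h the materials differed in 12 members. In Micro-TOM-EX 7 were higher (6 without LOC101266525, whose place the filter fixed) and 5 lower, beside 6.22% of all genes higher and 7.48% lower. Those higher were the class I genes LOC543848, HSP17.8 and LOC101266525, the class II gene HSP17.4, the cytosolic HSP90 genes HSP90 and LOC101264183, and LOC101265903 of the HSP110 type. Those lower were LOC101252901, hsp100/ClpB, LOC101255185, LOC101258888 and LOC100736525. Rescaling left these 12 calls in place and added LOC101255164, higher by 0.53 with an adjusted p of 0.0215.

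LOC543848 was higher in Micro-TOM-EX by 1.51 ± 0.19 (limma adjusted p = 9.77e-05), HSP17.8 by 0.97 ± 0.14 (limma adjusted p = 0.00036), HSP17.4 by 0.95 ± 0.18 (limma adjusted p = 0.00219), and HSP90 by 1.09 ± 0.22 (limma adjusted p = 0.00391). In each of these 4 genes all 3 Micro-TOM-EX libraries exceeded all 3 Micro-TOM libraries at 2 h. HSP17.4 did not pass with a pseudocount of 0.1. LOC101266525 had 1.32, 6.16 and 5.01 FPKM in Micro-TOM-EX and was listed at 0 in Micro-TOM. LOC101264183 had 3.68, 2.6 and 3.06 FPKM in Micro-TOM-EX and 0.95, 0.95 and 1.83 FPKM in Micro-TOM (log2 difference of 0.89 ± 0.19, limma adjusted p = 0.00613). Against 0 h this gene was lower in Micro-TOM and not past the threshold in Micro-TOM-EX. Of the neighbours on chromosome 6, only Hsp20.0 did not pass, with 18.8, 13.8 and 18.04 FPKM in Micro-TOM-EX and 14.1, 15.3 and 14.2 FPKM in Micro-TOM (log2 difference of 0.19 ± 0.23, limma adjusted p = 0.641).

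On the lower side, LOC101252901, the protein numbered 17, had 32.4, 31.9 and 31.8 FPKM at 2 h in Micro-TOM-EX and 69.5, 57.9 and 54.1 FPKM in Micro-TOM (log2 difference of -0.89 ± 0.12, limma adjusted p = 0.000207). hsp100/ClpB differed by -0.79 ± 0.14 (limma adjusted p = 0.00142). LOC101255185 had 0.32, 0.84 and 0.35 FPKM in Micro-TOM-EX and 2.08, 1.64 and 2.09 FPKM in Micro-TOM (log2 difference of -0.98 ± 0.19, limma adjusted p = 0.00313). None of these 3 genes overlapped between the materials at 2 h. LOC101258888 (log2 difference of -0.46 ± 0.13, limma adjusted p = 0.0323) lost its call without any 1 of 5 of the 6 libraries, at 0.0527 to 0.16, and LOC100736525 (log2 difference of -0.99 ± 0.30, limma adjusted p = 0.0403) without any 1 of 5, at 0.0642 to 0.153, and with a replicate block within each hour (0.0905).

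The 2 h response itself, 2 h minus 0 h in Micro-TOM-EX less the same in Micro-TOM, differed for 8 members. The response was larger in Micro-TOM-EX for 3 (2 without LOC101266525), beside 2.74% of all genes, and smaller for 5, beside 3.74%. It was larger for LOC543848 by 1.58 ± 0.27 (limma adjusted p = 0.00274, or 0.0746 with a pseudocount of 0.1) and for HSP17.4 by 0.91 ± 0.25 (limma adjusted p = 0.0399). The smaller responses were those of LOC100736525 (-1.56 ± 0.43), LOC101255185 (-1.06 ± 0.27), LOC101252901 (-0.95 ± 0.18), hsp100/ClpB (-0.84 ± 0.20) and LOC101258888 (-0.67 ± 0.19), with limma adjusted p of 0.004 for LOC101252901 and 0.0435 for LOC101258888, the lowest and highest. The differences of LOC101252901 and LOC543848 held without any single library. That of HSP17.4 was lost without any 1 of 11 libraries (0.0506 to 0.114), that of LOC100736525 without any 1 of 7 (0.0566 to 0.0986), that of LOC101255185 without any 1 of 7 (0.0514 to 0.0789) and that of LOC101258888 without any 1 of 13 (0.0525 to 0.124). That of hsp100/ClpB was lost without replicate 3 of Micro-TOM-EX at 2 h (0.0548) or replicate 1 of Micro-TOM at 2 h (0.0533). After rescaling LOC101258888 was at 0.0676. With a pseudocount of 0.1 the differences of HSP17.4 and LOC101255185 did not pass either. With a replicate block over all hours HSP90 also passed (0.74, adjusted p = 0.0325), and LOC101258888 did not (0.0558). With the block within each hour HSP90 passed (adjusted p = 0.04) and HSP17.4 (0.0566), LOC100736525 (0.0978) and LOC101258888 (0.0614) did not.

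At 8 h 2 members were called between the materials. In Micro-TOM-EX 1 member was higher, beside 0.989% of all genes, and 1 lower, beside 0.679%. The member higher was LOC101266525, whose place the filter fixed. LOC101266200 was lower, with 41.8, 52.6 and 47.6 FPKM in Micro-TOM-EX and 67.7, 70.33 and 63.4 FPKM in Micro-TOM (log2 difference of -0.50 ± 0.11, limma adjusted p = 0.0222), a call lost after rescaling (0.0711) and without any 1 of 4 libraries, at 0.0563 to 0.131. The 8 h response was larger in Micro-TOM-EX for 0 members by limma, beside 0.815% of all genes, and smaller for 1, beside 0.538%. At an unadjusted p under 0.05 these counts were 3 and 11. All genes were not counted at that unadjusted threshold, and their median difference was -0.082, or -0.004 after rescaling. These 2 counts therefore tell nothing particular to the members. The 1 member was LOC101247772, whose 8 h rise was smaller in Micro-TOM-EX, with a log2 difference of -1.15 ± 0.26 (limma adjusted p = 0.0435, 0.113 after rescaling), and the call was lost without any 1 of 13 of the 18 libraries, at 0.0554 to 0.117.

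The rest of the pathway was read from lists of partner genes that the rule left out. The counts below stand beside 26.7% of all genes higher and 49.2% lower at 2 h in Micro-TOM-EX and 27.5% and 47.5% in Micro-TOM. Rescaled counts stand instead beside the rescaled split of all 18402 genes. That split was 6694 higher and 6850 lower in Micro-TOM-EX and 6479 and 6814 in Micro-TOM. Of 16 heat stress transcription factors, 9 rose and 3 fell at 2 h in Micro-TOM-EX and 11 rose and 3 fell in Micro-TOM (after rescaling 11 and 2 in Micro-TOM-EX and 11 and 1 in Micro-TOM). Partner genes passed the same filter, and LOC104645813 and LOC101266325 had under 1 FPKM in every 0 h library. These 2 factors passed only through later libraries and had to be higher in some of them. How many other partner genes did so is not given here, so counts of partner genes higher are descriptions. LOC104645813, an A-1b-like factor, averaged 0.183 ± 0.0153, 52.8 ± 13.3 and 6.46 ± 3.2 FPKM at 0, 2 and 8 h in Micro-TOM-EX and 0.29 ± 0.165, 156 ± 41.4 and 7.54 ± 2.49 FPKM in Micro-TOM. At 2 h it was lower in Micro-TOM-EX, with a log2 difference of -1.53 ± 0.30 (limma adjusted p = 0.00294). LOC101266325, factor B-3, averaged 26.1 ± 4.73 FPKM at 8 h in Micro-TOM-EX, against 0.22 ± 0.238 FPKM at 0 h, and 18.4 ± 6.57 FPKM in Micro-TOM, against 0.0767 ± 0.0231 FPKM at 0 h.

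All 3 genes of the endoplasmic reticulum list rose at both hours in both materials. BiP/grp78, the HSP70 of that compartment, averaged 19.6 ± 5.15, 114 ± 6.94 and 49.0 ± 3.93 FPKM at 0, 2 and 8 h in Micro-TOM-EX and 15.9 ± 2.58, 169 ± 5.96 and 68.9 ± 12.6 FPKM in Micro-TOM. Its 2 h response was smaller in Micro-TOM-EX, with a log2 difference of -0.83 ± 0.23 (limma adjusted p = 0.0407), as was that of LOC101263797, luminal-binding protein 5 (log2 difference of -0.61 ± 0.16, limma adjusted p = 0.0373, 0.0759 after rescaling). The remaining gene of the list, the endoplasmin homolog, did not pass (log2 difference of -0.22). The member of the same compartment by its number in Arabidopsis, LOC101252901, had a smaller 2 h response in Micro-TOM-EX.

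Of 3 ClpB-type chaperones, 2 rose and 0 fell by limma at 2 h in Micro-TOM-EX (3 and 0 after rescaling) and 2 rose and 1 fell in Micro-TOM, a fall that did not hold after rescaling. LOC101254583, described as ClpB1, stood at 11.7 ± 0.295 FPKM at 2 h in Micro-TOM-EX, against 1.55 ± 0.296 FPKM at 0 h, and 10.8 ± 1.44 FPKM in Micro-TOM, against 1.13 ± 0.0586 FPKM at 0 h. Among 52 J-domain proteins 19 rose and 27 fell at 2 h in Micro-TOM-EX and 19 rose and 22 fell in Micro-TOM, but after rescaling 23 rose and 17 fell in Micro-TOM-EX and 24 rose and 15 fell in Micro-TOM. LOC101267064, a DnaJ subfamily B protein, averaged 0.613 ± 0.516, 35.6 ± 9.68 and 71.2 ± 6.94 FPKM at 0, 2 and 8 h in Micro-TOM-EX and 0.237 ± 0.12, 25.6 ± 1.95 and 62.7 ± 0.906 FPKM in Micro-TOM. Of 11 BAG regulators, which release clients from HSP70, 3 rose and 6 fell at 2 h in Micro-TOM-EX and 4 rose and 5 fell in Micro-TOM (after rescaling 3 and 4 in Micro-TOM-EX and 5 and 4 in Micro-TOM). LOC101246459, described as BAG regulator 3-like, had 2.53 ± 0.131 FPKM at 2 h in Micro-TOM-EX, against 43.6 ± 7.12 FPKM at 0 h, and 2.42 ± 0.357 FPKM in Micro-TOM, against 52.1 ± 25.4 FPKM at 0 h. Among 8 chaperonins 3 rose and 2 fell at 2 h in each material (5 and 2 in Micro-TOM-EX after rescaling), the largest rise being that of LOC101244957 (2.04 in Micro-TOM-EX and 1.81 in Micro-TOM). Of 8 co-chaperones 3 rose and 4 fell, and of 6 prefoldins 1 rose and 3 fell, at 2 h in each material, so that the share lower was near that of all genes. After rescaling the co-chaperones numbered 4 and 3 and the prefoldins 2 and 3 in Micro-TOM-EX, and the counts in Micro-TOM were as before.

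The members lie on 12 chromosomes, with 7 on chromosome 8, 6 on chromosome 6 and 5 each on chromosomes 1, 3 and 7. Beyond the chromosome 6 row, LOC101265903 and LOC101266200 on chromosome 12 (39094501 to 39100704 and 39109186 to 39116057, both on the plus strand) have no other gene of the table between them, and both rose at 2 h. MTSHP and LOC101254323 on chromosome 8 are 4349 bases apart and differed: MTSHP had at least 10.7 FPKM in every 2 h library and at most 0.43 FPKM at 0 h, and LOC101254323 had 9.51 ± 2.79 FPKM at 2 h in Micro-TOM-EX, against 11.4 ± 3.67 FPKM at 0 h, and 6.80 ± 0.735 FPKM in Micro-TOM, against 9.63 ± 2.35 FPKM at 0 h.

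Of the 59 genes that met the words of the rule, 11 stayed under the filter on low values, among them the chloroplast small heat shock protein HSP21, with at most 0.53 FPKM, the endoplasmic reticulum form er-sHSP, with at most 0.84 FPKM, and vis1, which reached 1.15 FPKM in 1 library. Just inside the filter were LOC101268020 with 4 libraries at 1 FPKM or more and LOC101247576, LOC101254946 and LOC101266525 with 6. Altogether 31 of the 48 members reached 1 FPKM in all 18 libraries. The 9 members with no 0 h library at 1 FPKM had 0 h values of at most 0.19 (LOC544282) to 0.82 FPKM (LOC101255185).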

How the data were processed

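Leaf RNA was sequenced in 18 libraries, 3 for each of 6 groups of material and hour. Per the labels' protocols, Trizol and a BGI500 library protocol were used. The submitters' processing notes name DESeq2 1.4.5, RSEM 1.2.12, Bowtie2 2.2.5 and HISAT2 2.0.4 with no settings, while no genome build is given in the sources used here. FPKM values per gene and library were deposited by the authors, with log2 fold changes and q-values of their own comparisons. The deposited log2 fold changes and q-values served only as an alternative call.

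Genes that reached 1 FPKM in 3 or more of the libraries were tested. The log2(FPKM + 1) values were fitted with limma 3.58.1 in R 4.3.3 in 1 model of the 6 groups, with a mean trend, and p-values were adjusted by Benjamini-Hochberg over all genes of each comparison, with a threshold of 0.05. Log2 differences are on that scale, with a pseudocount of 1, and understate changes of low genes. The fit was tested on simulated data. Tables were made with Python 3.11.15.

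Depth was estimated by searching for the library size and fragment length at which low values of single-transcript genes become whole fragments, and 94.63% to 96.44% of them did within 0.15. Genes near 1 FPKM rest on few fragments.

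The labels' replicate numbers name no shared plant or batch. In a check of deviations from the group means, libraries of the same number correlated most at 0 h between the materials, at 0.475, 0.439 and 0.127. The last of these was exceeded between other groups, as by 0.246 for replicate 1 of Micro-TOM 2 h and Micro-TOM-EX 0 h. Alternatives were median-of-ratios scaling, no filter or one at 5 FPKM, a pseudocount of 0.1, a replicate block over all hours or within each hour, the compared groups alone, both 0 h libraries numbered 2 left out, each library left out in turn and the authors' deposited q-values.

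Values in every library are given for hsc70, HSP90, HSP17.4 and LOC100736525, for the 2 members of highest mean FPKM in each subfamily, for the 3 largest called rises and falls in each comparison with 0 h, and for the 3 called members of smallest adjusted p in each comparison of the materials or their responses. Partner genes are named up to 2 a list, by smallest adjusted p. The members and lists were chosen with earlier results of these data known. A planned look at promoters and proteins was not run, since no sequence table was used here.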

Additional observations from a re-analysis of the deposited data

Results flagged for a closer look

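The 2 h response, 2 h minus 0 h, differed between the materials for 8 members by a test of the difference itself, limma's interaction term. All values are Micro-TOM-EX minus Micro-TOM on the log2(FPKM + 1) scale. The response was smaller in Micro-TOM-EX for LOC100736525, at -1.56, for LOC101255185, at -1.06, for LOC101252901, at -0.95, for hsp100/ClpB, at -0.84, and for LOC101258888, at -0.67. It was larger in Micro-TOM-EX for LOC543848, at 1.58, and for HSP17.4, at 0.91. For LOC101266525 the interaction term was 1.94, which is no fold change, since the gene is listed at 0 in Micro-TOM at 0 and 2 h. It passed the filter on low values only through Micro-TOM-EX libraries of 2 h and 8 h, so this value is a description.

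At 8 h the same test picked out 1 member, LOC101247772, whose response was smaller in Micro-TOM-EX, at -1.15.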

How the results depend on the processing

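Of 239 calls of members, 214 held after median-of-ratios rescaling, 22 were lost and 3 turned round. With a replicate block over all hours 237 held, with one within each hour 230, and by the authors' deposited q-values 198 of 230. The 239 include differences from 0 h of members that passed the filter only through later libraries. They also include comparisons of LOC101266525 between the materials. Both kinds are descriptions, so these numbers do not measure how well the remaining calls held. The calls that turned round were those of LOC101255395 in Micro-TOM-EX at 2 h (0.16 rescaled and 0.19 in the authors' deposited table) and of HsfA1a at 2 h in Micro-TOM-EX (0.036 and 0.0667) and in Micro-TOM (0.0803 and 0.12). The cause was not tested.

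After rescaling, the members lower at 2 h numbered 5 in place of 11 in Micro-TOM-EX and 4 in place of 7 in Micro-TOM, and those higher at 8 h than at 2 h numbered 10 in place of 15 in Micro-TOM-EX and 10 in place of 16 in Micro-TOM. The authors' q-values gave 4 and 3 lower at 2 h, and 7 and 7 higher at 8 h than at 2 h. Between the materials at 0 h, the count higher was 1, and 0 after rescaling, with the compared groups alone, without both 0 h libraries numbered 2 and by the authors' q-values, but 2 with a pseudocount of 0.1 (LOC101265903 and LOC101254946), with the replicate block over all hours (LOC101265903 and LOC101246615) and with the block within each hour (hsc70 and LOC101246615, without LOC101265903). The count lower was 0, and 1 after rescaling and by the authors' q-values. At 8 h the count higher was 1, and 0 with a filter of 5 FPKM, which leaves fewer genes. The count lower was 1, and 0 after rescaling and with the compared groups alone.

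For the 2 h response, 3 members were larger in Micro-TOM-EX, and 1 with a pseudocount of 0.1; the block within each hour also gave 3, with HSP90 in place of HSP17.4. The smaller ones were 5, and 3 without the filter, with the block within each hour, without the 0 h libraries numbered 2 and with the compared groups alone. For the 8 h response, 0 were larger, and 1 with the compared groups alone. The smaller ones were 1, and 0 after rescaling, without the filter, with a pseudocount of 0.1, without the 0 h libraries numbered 2 and with the compared groups alone.

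With each library left out in turn, members lower at 8 h in Micro-TOM numbered 3 to 6. Between the materials they numbered 0 to 2 higher and 0 to 1 lower at 0 h, 3 to 6 lower at 2 h and 0 to 2 lower at 8 h. The 2 h response was smaller for 1 to 5, and the 8 h response was larger for 0 to 1 and smaller for 0 to 1. Genes near 1 FPKM rest on few fragments, which limits calls of members such as LOC101255185 and LOC101268020.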
